A study of Gallus gallus with 9 samples.

Results

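SERPINF1 (ENSGALG00000003015) encodes pigment epithelium-derived factor (PEDF), a secreted protein of the serpin family. It is 1 of 12479 mRNAs in the expression table of granulosa cells of the chicken F1 follicle, the largest preovulatory follicle. It was chosen because its level rose both between ZT0 and ZT12 and between ZT12 and ZT20, so its own levels are given as a description, without a test. Cells were taken from Rohman layers 210 days old at ZT0 (clock hour 9, early in the ovulatory cycle), ZT12 (clock hour 21, the middle) and ZT20 (clock hour 5, the surge of luteinizing hormone, LH), from 3 hens at each stage. The 9 libraries of total RNA were depleted of ribosomal RNA. All hens were untreated layers selected for stable laying times, and separate hens were used at each stage.

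Most serpins are inhibitors that trap a protease, while PEDF belongs to the few members that do not inhibit proteases. In mammals it is known for blocking the growth and migration of endothelial cells and for opposing vascular endothelial growth factor, acting through cell surface proteins and through genes such as PPARG and FASLG. The granulosa layer of the hen follicle has no vessels of its own and is separated by a basal lamina from the vascularised theca.

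Levels are in TPM, a share of the transcripts of a library that is scaled to transcript length and to the library, recovered from the deposited log2 values. SERPINF1 had 15.3, 15.3 and 11.5 TPM in the ZT0 libraries. It had 55.7, 54.7 and 36.5 TPM in the ZT12 libraries. At ZT20 it had 113, 131 and 161 TPM. The lowest library of each later stage lay above the highest of the stage before it, so no stages overlapped. A higher level without overlap was found for 3.60% of mRNAs for ZT12 against ZT0, 34.6% for ZT20 against ZT12 and 23.2% for ZT20 against ZT0. The stage means were 14.0 ± 2.16 TPM at ZT0, 49.0 ± 10.8 TPM at ZT12 and 135 ± 24.5 TPM at ZT20 (SD, n = 3 each), in that order from low to high, and both neighbouring pairs differed by more than their spread. The coefficient of variation within a stage was lowest at ZT0 (15.4%), against 22.1% at ZT12 and 18.1% at ZT20. In bulk RNA, more cells of a type and more RNA per cell cannot be told apart.

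**Figure D1:**
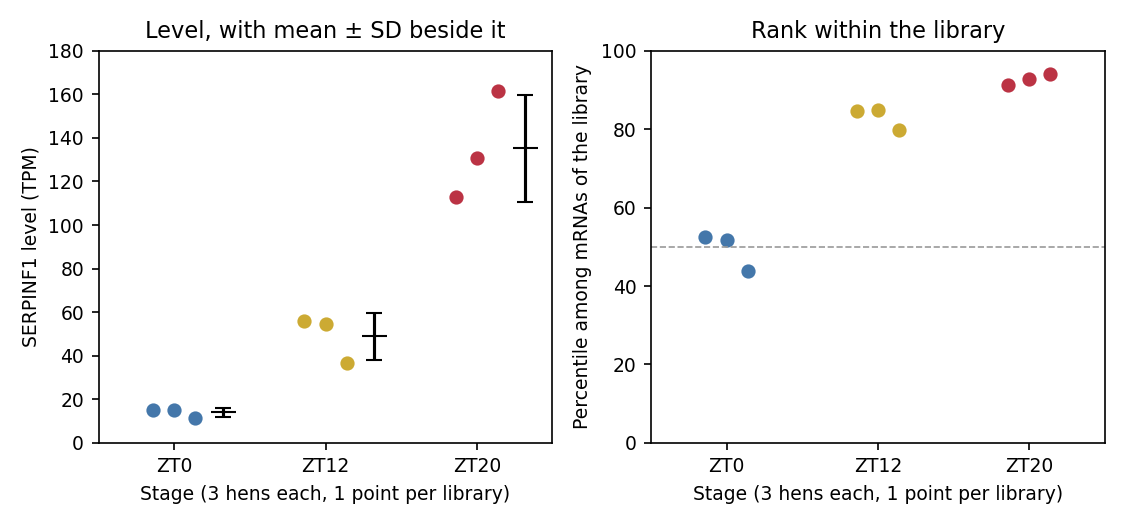
SERPINF1 in the 9 libraries by stage: on the left the level in TPM with the mean and SD of 3 hens beside the points, on the right the percentile of the gene among the mRNAs of the same library. The ZT0 libraries sit between 11.5 and 15.3 TPM, the ZT12 libraries between 36.5 and 55.7 TPM, and the ZT20 libraries between 113 and 161 TPM.

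The place of SERPINF1 among the mRNAs of a library, which does not depend on a scaling factor of the library, moved in the same order. It stood at the 52.6, 51.8 and 43.9 percentile at ZT0, near the middle mRNA. It stood at the 84.6, 85.0 and 79.7 percentile at ZT12, and at the 91.3, 92.7 and 94.1 percentile at ZT20. In the highest library, ZT20 replicate 3, 739 mRNAs had a higher TPM than SERPINF1, and in the lowest, ZT0 replicate 3, 6996 had.

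On the log2(TPM + 1) scale, SERPINF1 averaged 1.72 higher at ZT12 than at ZT0, 1.46 higher at ZT20 than at ZT12, and 3.17 higher at ZT20 than at ZT0. The pooled SD within stages was 0.27 on this scale. As ratios of mean TPM these differences were 3.49, 2.76 and 9.62. The lowest ZT12 library was 2.39 times the highest ZT0 library, and the lowest ZT20 library was 2.03 times the highest ZT12 library. The differences of both steps share the ZT12 libraries, and a high ZT12 level would enlarge the first and shrink the second.

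The first step put SERPINF1 far out among all mRNAs, and the second did not. Its difference for ZT12 against ZT0 ranked 19 of 12472 mRNAs tested, those above 0.1 TPM in at least 1 library, where the median of all mRNAs was -0.28. For ZT20 against ZT12 it ranked 1299, with a median of all mRNAs of 0.08. For ZT20 against ZT0 it ranked 237, with a median of -0.19. Relative to these medians the differences of SERPINF1 were 2.0, 1.37 and 3.37. Since the gene was chosen for rising at both steps, its ranks are a description and no test.

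Rises at both steps were uncommon among the mRNAs. A log2 difference above 1 at both steps was found for 7 of 12472 mRNAs, SERPINF1 included, and a difference above 0 at both steps for 859. Both counts are for TPM without further scaling, where the median difference of all mRNAs at the first step was -0.28, and are given for that scale only. Ordered by the smaller of the 2 steps, SERPINF1 was number 5 of the 7. RAMP1, which encodes an accessory protein of the calcitonin receptor-like receptor, was the other one with a symbol, with differences of 1.02 and 3.40. RAMP1 stood just inside the limit of 1 at the first step. The remaining 5 are known here by identifier only, among them ENSGALG00000015708, with 1.87 and 2.73.

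**Figure D2:**
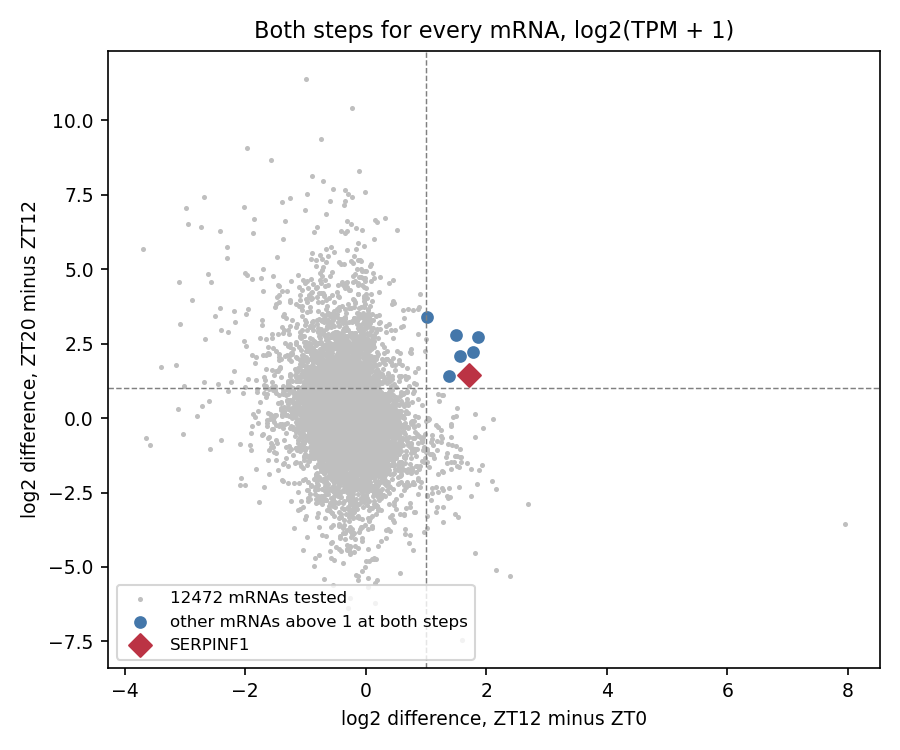
Log2 difference of each of 12472 mRNAs for ZT12 minus ZT0 (horizontal axis) and for ZT20 minus ZT12 (vertical axis), on log2(TPM + 1). SERPINF1 (diamond) and 6 other mRNAs (large points) lie above 1, the dashed lines, on both axes.

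Other genes were called changed at an absolute log2 difference above 1 and an adjusted p under 0.05 in limma, adjusted by Benjamini-Hochberg over all mRNAs tested. By this rule 3.86% of mRNAs were called for ZT12 against ZT0, 27.8% for ZT20 against ZT12, and 28.2% for ZT20 against ZT0. Of 169 genes in the 5 pathway lists, 45 could be paired with an identifier and all 45 were tested. Among these 45, 1 rose and 2 fell at ZT12 against ZT0, a count of 3 or 6.67%. For ZT20 against ZT12, 9 rose and 10 fell (42.2%), and at ZT20 against ZT0, 6 rose and 11 fell (37.8%). Their median log2 differences were -0.22, -0.06 and -0.17, against -0.28, 0.08 and -0.19 for all mRNAs.

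Of 33 other serpins listed, 3 were paired. The median difference of the 3 was -0.59 for ZT12 against ZT0 and 1.29 for ZT20 against ZT12, and each of them rose at 1 step while none was called at both. At ZT12 against ZT0, where 0.537% of all mRNAs were called higher, 1 of 3 rose. Of the same 3, 2 rose at ZT20 against ZT12, where 16.0% were.

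SERPINF2, which encodes alpha-2-antiplasmin, the main inhibitor of plasmin, had 4.39, 2.32 and 2.97 TPM at ZT0, 9.97, 8.85 and 4.69 TPM at ZT12, and 7.66, 6.02 and 7.85 TPM at ZT20. All ZT12 libraries lay above all ZT0 libraries, and the ZT20 libraries lay within the range of ZT12. SERPINF2 rose at ZT12 against ZT0 by a log2 difference of 1.04 ± 0.27 (SE; limma adjusted p = 0.0332), and the difference for ZT20 against ZT12 was -0.06 ± 0.27 (adjusted p = 0.858). The first call was lost in 4 of 9 fits that left out 1 library: without ZT0 replicate 2 (0.88), ZT0 replicate 3 (1.01), ZT12 replicate 1 (0.86) or ZT12 replicate 2 (0.93). With GC content of the reads as a covariate the difference was 1.19 with an adjusted p of 0.209, and in a fit of the ZT0 and ZT12 libraries alone the adjusted p was 0.0617.

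SERPINC1, which encodes antithrombin, an inhibitor of thrombin, had 2.45, 3.54 and 5.98 TPM at ZT0, 2.56, 2.27 and 1.77 TPM at ZT12, and 7.47, 7.20 and 7.66 TPM at ZT20. The ZT20 libraries lay above all others, and those of ZT0 and ZT12 overlapped. The log2 difference was 1.41 ± 0.24 for ZT20 against ZT12 (SE; limma adjusted p = 0.000705) and -0.59 ± 0.24 for ZT12 against ZT0 (adjusted p = 0.110).

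SERPINE2, which encodes protease nexin-1, an inhibitor of thrombin and plasminogen activators, had 2.86, 2.81 and 2.78 TPM at ZT0, 0.900, 1.75 and 1.52 TPM at ZT12, and 3.80, 11.2 and 2.31 TPM at ZT20. ZT20 replicate 2 stood apart from the other libraries. SERPINE2 rose at ZT20 against ZT12 by 1.29 ± 0.39 (SE; limma adjusted p = 0.0180), and by 0.76, short of the limit of 1, without that library. Without ZT12 replicate 1 the adjusted p was 0.0629, and with GC content the difference was 0.89 with an adjusted p of 0.121.

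Of 16 genes listed as PEDF binding partners and response genes, 4 were paired, and the receptor candidates PNPLA2, PLXDC1 and PLXDC2 were not analysed here. By limma, 0 of 4 were called at ZT12 against ZT0, with 1 at an unadjusted p under 0.05 (36.5% of all mRNAs were), and 1 of 4 fell at ZT20 against ZT12, with 11.7% of all mRNAs called lower. PPARG, which encodes a nuclear receptor of fatty acid ligands that PEDF is known to raise in mammalian endothelial cells, had 80.4, 53.0 and 34.1 TPM at ZT0, 62.6, 66.1 and 53.4 TPM at ZT12, and 15.9, 9.97 and 14.9 TPM at ZT20. All ZT20 libraries were below all earlier ones. PPARG fell by 2.1 ± 0.28 on the log2 scale at ZT20 against ZT12 (SE; limma adjusted p = 0.000128).

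The other partners moved by less than the limit. ITGAV, the integrin alpha V subunit, had 20.3, 18.1 and 24.6 TPM at ZT0, 22.5, 18.6 and 17.5 TPM at ZT12, and 30.4, 34.4 and 40.2 TPM at ZT20. Its ZT20 libraries were the highest, with a log2 difference of 0.81 ± 0.17 for ZT20 against ZT12 (limma adjusted p = 0.00219), under the limit of 1. FASLG, the Fas ligand that triggers cell death, was near the floor of the table, with 0.459, 0.309 and 1.10 TPM at ZT0, 0.354, 0.376 and 0.198 TPM at ZT12, and 1.31, 2.57 and 0.698 TPM at ZT20. The difference of FASLG for ZT20 against ZT12 was 0.88 ± 0.26 (adjusted p = 0.0170), and 1.85 with a pseudocount of 0.1, which passed the limit. CASP9, an initiator caspase, had 5.40, 5.09 and 6.20 TPM at ZT0, 3.60, 3.47 and 2.2 TPM at ZT12, and 5.53, 4.59 and 4.44 TPM at ZT20, with differences of -0.70 ± 0.19 for the first step and 0.53 ± 0.19 for the second.

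**Figure D3:**
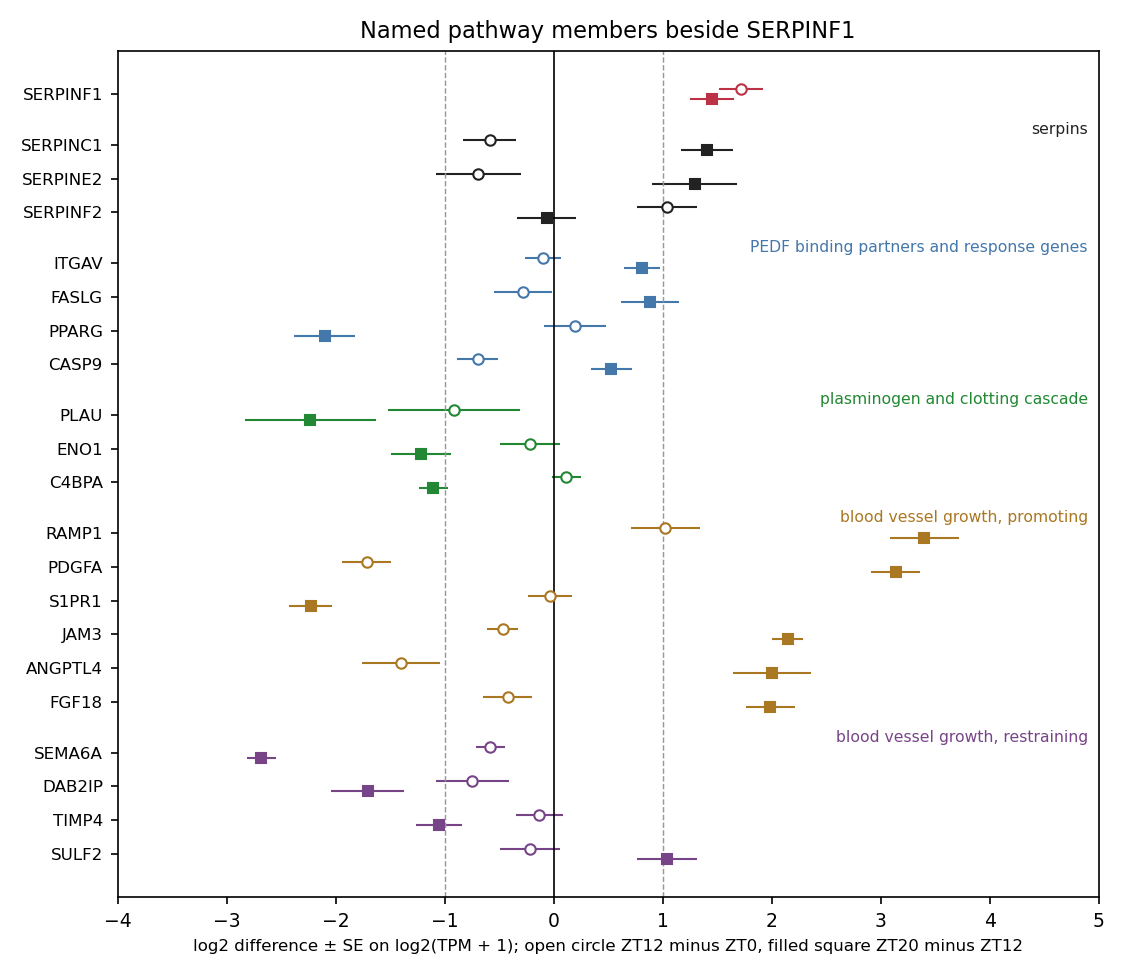
Log2 differences with SE of SERPINF1 and the named members of the 5 pathway lists, on log2(TPM + 1). Open circles are ZT12 minus ZT0 and filled squares ZT20 minus ZT12. Both SERPINF1 symbols lie to the right of 1 (dashed line), and RAMP1, at 1.02 and 3.40, is the only other gene drawn for which both do.

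Blood vessel genes were grouped by whether they are known to promote or to restrain vessel growth. Of 56 genes on the promoting list, 17 were paired. At ZT12 against ZT0, 0 rose and 2 fell (3.32% of all mRNAs were called lower). In the second step, ZT20 against ZT12, 6 rose and 3 fell, where 16.0% of all mRNAs were called higher and 11.7% lower. The median difference of the 17 was -0.11 at the first step and 0.04 at the second. VEGFA and its receptors were not analysed here.

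PDGFA, a platelet-derived growth factor chain, had 37.4, 33.6 and 50.2 TPM at ZT0, 11.61, 11.75 and 10.96 TPM at ZT12, and 155, 84.1 and 97.9 TPM at ZT20. No stages overlapped, and ZT12 was the lowest. PDGFA fell by 1.71 ± 0.22 at ZT12 against ZT0 (SE; limma adjusted p = 0.00535) and rose by 3.14 ± 0.22 at ZT20 against ZT12 (adjusted p = 1.53e-06). With GC content as a covariate the first difference was -1.53 with an adjusted p of 0.132.

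ANGPTL4, an angiopoietin-like protein that inhibits lipoprotein lipase, also had its lowest level at ZT12, with 22.8, 37.1 and 30.5 TPM at ZT0, 18.0, 11.8 and 5.39 TPM at ZT12, and 37.0, 60.2 and 42.0 TPM at ZT20. The ZT12 libraries lay below all others. ANGPTL4 fell by 1.40 ± 0.36 at ZT12 against ZT0 (SE; limma adjusted p = 0.0319) and rose by 2.0 ± 0.36 at ZT20 against ZT12 (adjusted p = 0.000972). The first call was lost without ZT0 replicate 2 (-1.24, adjusted p = 0.0919), ZT0 replicate 3 (-1.38, 0.0943), ZT12 replicate 2 (-1.47, 0.0738) or ZT12 replicate 3 (-0.97, 0.0702). It was also lost with median ratio scaling (-1.08, adjusted p = 0.0944), with quantile normalization (-1.07, 0.101), with GC content (-0.87, 0.365) and in a fit of the compared stages alone (adjusted p = 0.0584).

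RAMP1 had 9.35, 10.4 and 3.33 TPM at ZT0, 17.8, 15.1 and 13.2 TPM at ZT12, and 172, 149 and 191 TPM at ZT20. No stages overlapped, the order of the stages was that of SERPINF1, and the second step was the larger one. RAMP1 rose by 3.40 ± 0.32 at ZT20 against ZT12 (SE; limma adjusted p = 9.80e-06). For ZT12 against ZT0 the difference of 1.02 ± 0.32 had an adjusted p of 0.0515 and was not called. It was called without ZT0 replicate 1 (1.21, adjusted p = 0.0468), with quantile normalization (1.42, 0.0473) and with a filter of 1 TPM in 3 libraries (adjusted p = 0.0466), and without ZT0 replicate 3 it was 0.58.

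JAM3, a junctional adhesion molecule, had 80.3, 91.8 and 86.9 TPM at ZT20, against 16.7, 20.1 and 19.3 TPM at ZT12. FGF18, a fibroblast growth factor, had 8.11, 13.3 and 12.3 TPM at ZT20, against 1.94, 2.59 and 1.63 TPM at ZT12. In both genes all ZT20 libraries were above all ZT12 libraries, and the log2 differences were 2.15 ± 0.14 for JAM3 and 1.99 ± 0.23 for FGF18 (limma adjusted p = 9.29e-07 and 4.28e-05). S1PR1, a sphingosine 1-phosphate receptor that is abundant in endothelium, had 2.88, 2.91 and 1.97 TPM at ZT20, against 20.4, 12.3 and 15.3 TPM at ZT12. It fell by 2.23 ± 0.20 (adjusted p = 7.73e-06), with no overlap. CLIC4, an intracellular chloride channel protein, had 23.1, 22.1 and 22.2 TPM at ZT20, against 69.5, 75.6 and 73.4 TPM at ZT12, and fell by 1.65 ± 0.14 (SE; limma adjusted p = 5.97e-06).

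HBEGF, an epidermal growth factor receptor ligand, had 3.57, 1.23 and 0.662 TPM at ZT20, against 0.0420, 0.227 and 0.207 TPM at ZT12, a difference of 1.15 ± 0.30 (SE; limma adjusted p = 0.00837). The call of HBEGF was lost without ZT20 replicate 1, its highest library (0.74), and with GC content (0.83, adjusted p = 0.0627). EDN2, an endothelin, had 0.246, 0.619 and 0.275 TPM at ZT20, against 1.63, 9.73 and 2.30 TPM at ZT12, and fell by 1.73 ± 0.43 (SE; limma adjusted p = 0.00723). Without ZT12 replicate 2 its difference was -1.10 and was still called.

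Of 34 genes on the restraining list, to which PEDF itself would belong, 14 were paired. By limma, 0 of 14 were called at ZT12 against ZT0, with 5 of 14 at an unadjusted p under 0.05, near the 36.5% of all mRNAs. In the second step 1 rose and 4 fell, where 16.0% of all mRNAs were called higher and 11.7% lower. The median difference of the 14 was -0.17 at the first step and -0.23 at the second, and their highest differences were 0.20 and 1.04. SERPINF1, at 1.72 and 1.46, was chosen for rising at both steps, so its place above them is no test.

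SEMA6A, a transmembrane semaphorin, had 93.4, 105 and 111 TPM at ZT0, 69.1, 65.4 and 71.2 TPM at ZT12, and 11.02, 10.38 and 8.32 TPM at ZT20. The stages ran in the order opposite to SERPINF1 and did not overlap. SEMA6A fell by 2.68 ± 0.13 at ZT20 against ZT12 (SE; limma adjusted p = 1.37e-07). The difference for ZT12 against ZT0 was -0.58 ± 0.13 (adjusted p = 0.0247), under the limit of 1.

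DAB2IP, a Ras GTPase activating protein, had 0.638, 2.30 and 0.863 TPM at ZT20, against 7.89, 7.56 and 3.60 TPM at ZT12, and fell by 1.71 ± 0.34 (SE; limma adjusted p = 0.00177). TIMP4, an inhibitor of matrix metalloproteinases, had 1.34, 1.08 and 1.85 TPM at ZT20, against 5.77, 3.24 and 3.29 TPM at ZT12. In both genes all ZT20 libraries were below all ZT12 libraries. TIMP4 fell by 1.05 ± 0.21 (adjusted p = 0.00194), and by less than 1 without ZT12 replicate 1 (-0.83) or ZT20 replicate 2 (-0.95). SULF2, an extracellular heparan sulfatase, was the member that rose, with 2.64, 4.56 and 5.12 TPM at ZT20, against 1.20, 1.08 and 2.11 TPM at ZT12. The difference of SULF2 was 1.04 ± 0.28 (adjusted p = 0.00961). It was under 1 in 4 of 9 fits that left out 1 library: without ZT12 replicate 1 (0.97), ZT12 replicate 2 (0.93), ZT20 replicate 2 (0.96) or ZT20 replicate 3 (0.89). It was also under 1 with median ratio scaling (0.98) and quantile normalization (0.97).

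Of 33 genes of the plasminogen and clotting cascade, 9 were paired. By limma, 0 of 9 were called at ZT12 against ZT0, with 2 at an unadjusted p under 0.05 (36.5% of all mRNAs were). At ZT20 against ZT12, 0 rose and 3 fell, where 16.0% of all mRNAs were called higher and 11.7% lower. PLAU, the urokinase plasminogen activator, had 30.5, 20.5 and 3.32 TPM at ZT0, 6.03, 8.90 and 5.31 TPM at ZT12, and 1.19, 0.501 and 0.288 TPM at ZT20. ZT0 replicate 3 stood far below the other ZT0 libraries, and all ZT20 libraries were below all earlier ones. PLAU fell by 2.23 ± 0.60 at ZT20 against ZT12 (SE; limma adjusted p = 0.0105). For ZT12 against ZT0 the difference was -0.91 ± 0.60 (adjusted p = 0.296), and -1.78 with an adjusted p of 0.0256 without ZT0 replicate 3.

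C4BPA, a binding protein of complement C4, had 94.2, 100.2 and 122 TPM at ZT20, against 249, 223 and 208 TPM at ZT12, and fell by 1.10 ± 0.13 (SE; limma adjusted p = 5.08e-05). ENO1, a glycolytic enolase that also binds plasminogen at the cell surface, had 567, 519 and 248 TPM at ZT20, against 1104, 987 and 844 TPM at ZT12, and fell by 1.22 ± 0.28 (adjusted p = 0.00416). No libraries of these stages overlapped. Without ZT20 replicate 3, the lowest for ENO1, its difference was -0.84, under the limit.

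In the Gallus_gallus v.6.0 annotation of the study, SERPINF1 lies on chromosome 19 at 5406929 to 5413789, with 9 exons. Within 100 kb on either side, 7 annotated mRNAs and 1 annotated lncRNA were tested. At ZT12 against ZT0, 1 of 7 mRNAs rose and 0 fell, and that 1 was SERPINF2, whose annotated span lies 3904 bases from that of SERPINF1. It is the same call that was counted among the serpins, and 0.537% of all mRNAs were called higher at this step. At ZT20 against ZT12, 2 of 7 rose and 0 fell, where 16.0% of all mRNAs were called higher and 11.7% lower. The lncRNA rose as well at ZT20 against ZT12 (20.8% of all lncRNAs were called there, 0.0809% for ZT12 against ZT0 and 18.3% for ZT20 against ZT0). Part of the annotation was used here, so other transcripts may lie in the window.

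The genes that rose at the second step lay on the same side as SERPINF2. SLC43A2, an amino acid transporter 89540 bases away, had 28.3, 13.9 and 20.3 TPM at ZT20, against 2.87, 1.74 and 2.54 TPM at ZT12, a log2 difference of 2.65 ± 0.35 (SE; limma adjusted p = 0.000110). RILP, an effector of Rab7 on lysosomes 62688 bases away, had 11.95, 11.89 and 16.3 TPM at ZT20, against 3.68, 3.47 and 2.81 TPM at ZT12, a difference of 1.73 ± 0.21 (adjusted p = 7.37e-05). All ZT20 libraries exceeded all ZT12 libraries in both. At the first step their differences were -0.32 ± 0.35 for SLC43A2 and -0.50 ± 0.21 for RILP, neither called.

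The lncRNA G6198 is annotated as intronic and lies within the span of SERPINF2. It had 5.39, 6.04 and 9.93 TPM at ZT0, 4.87, 4.35 and 0.982 TPM at ZT12, and 10.12, 12.01 and 11.10 TPM at ZT20. Its ZT12 libraries were the lowest, where those of SERPINF2 were not, and no stages overlapped. G6198 rose by 1.60 ± 0.41 at ZT20 against ZT12 (SE; limma adjusted p = 0.0101 over the lncRNAs). The difference was 0.97 with quantile normalization, and 1.26 with an adjusted p of 0.0722 with GC content, and both lost the call.

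On the other side, the annotated span of SMYD4, a methyltransferase family gene, lies 506 bases from that of SERPINF1. SMYD4 had 106, 86.2 and 82.9 TPM at ZT0, 87.2, 84.4 and 68.1 TPM at ZT12, and 69.4, 59.6 and 49.1 TPM at ZT20. Its differences were -0.43 ± 0.16 for ZT20 against ZT12 and -0.20 ± 0.16 for ZT12 against ZT0, opposite in sign to those of SERPINF1 and not called. In the RefSeq annotation of the GRCg7b assembly the span of SMYD4 contains SERPINF1. A span does not show whether exons are shared, and whether the libraries keep strand is not given in the sources used here. Whether reads of overlapping transcripts entered the SERPINF1 level was not tested.

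RPA1, a subunit of the single-strand DNA binding replication protein A, had 103, 86.6 and 91.8 TPM at ZT20, against 203, 147 and 172 TPM at ZT12, a difference of -0.88 ± 0.17 under the limit of 1. With quantile normalization it was -1.10 and was called. PRPF8, a core spliceosome protein, and DPH1, an enzyme of diphthamide synthesis, had differences between -0.41 and 0.13 at both steps and were not called.

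**Figure D4:**
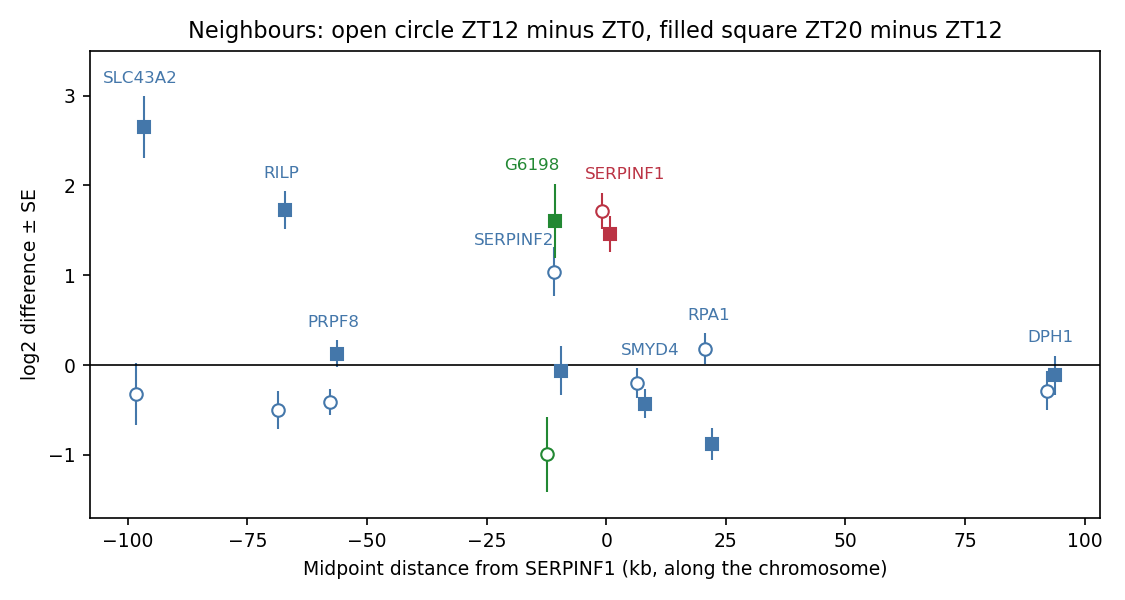
Log2 difference with SE of SERPINF1 (red), 7 mRNAs (blue) and 1 lncRNA (green) within 100 kb, against the distance of their midpoints from that of SERPINF1. Open circles are ZT12 minus ZT0 and filled squares ZT20 minus ZT12. SERPINF1 is the gene with both symbols above 1, SERPINF2 is above 1 at the first step, and SLC43A2, RILP and G6198 are above 1 at the second.

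Likeness to SERPINF1 was measured over the 9 libraries as the root mean square (RMS) difference of log2(TPM + 1), each transcript centred on its own mean, where 0 is an identical profile. The median over 12471 other mRNAs was 1.43, and 5 of them were under 0.5. These transcripts were picked for the likeness, so the values are a description without a test. The closest mRNAs were ENSGALG00000012165 (RMS 0.40) and ENSGALG00000013624 (0.40), and ENSGALG00000013624 is also among the 7 mRNAs above 1 at both steps.

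Of the mRNAs with a symbol, PRKCZ, an atypical protein kinase C, was the closest (RMS 0.44). PRKCZ had 2.27, 2.05 and 2.74 TPM at ZT0, 5.41, 5.41 and 3.37 TPM at ZT12, and 21.0, 24.8 and 28.5 TPM at ZT20. As for SERPINF1, ZT12 replicate 3 was the lowest of its stage, ZT20 replicate 3 was the highest, and no stages overlapped. The step was 0.75 for ZT12 against ZT0 and 2.18 for ZT20 against ZT12, so the first was smaller than that of SERPINF1 and the second larger.

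THSD4, a secreted protein with thrombospondin repeats, followed at an RMS of 0.60, with 1.08, 1.85 and 0.811 TPM at ZT0, 2.21, 2.04 and 2.03 TPM at ZT12, and 8.93, 7.82 and 8.43 TPM at ZT20. CHST8, a sulfotransferase known for modifying the sugars of LH in the mammalian pituitary, stood at 0.65. CHST8 had 32.8, 34.9 and 39.0 TPM at ZT0, 84.6, 59.8 and 48.6 TPM at ZT12, and 121, 92.6 and 150.1 TPM at ZT20, with no overlap between stages. Of the named mRNAs with a symbol it was the one with nearly equal steps, 0.80 and 0.91.

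PTPRS, a receptor tyrosine phosphatase, stood at an RMS of 0.64, GAS2, a protein of the cytoskeleton, at 0.68, and PIWIL1, a germline Argonaute protein, at 0.68. Their first steps were 0.55, 0.17 and 0.14, and their second steps 1.96, 1.79 and 2.39, so most of their distance from SERPINF1 lay in the first step. Of the lncRNAs, G13157 was the closest (RMS 0.42), with 1.03, 1.20 and 0.614 TPM at ZT0, 4.33, 3.73 and 0.866 TPM at ZT12, and 8.64, 9.90 and 15.8 TPM at ZT20. ZT12 replicate 3 fell within the ZT0 range for G13157. G11843 followed at 0.59, and its ZT20 replicate 1, at 41.1 TPM, lay within the ZT12 range of 29.1 to 51.1 TPM.

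**Figure D5:**
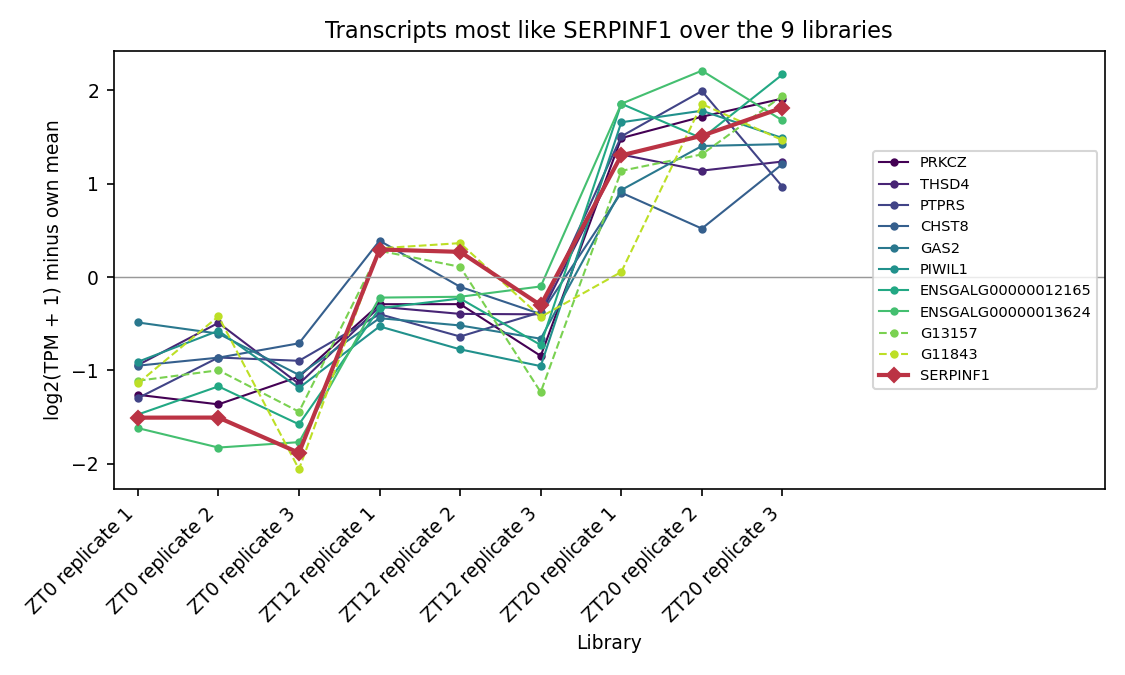
Log2(TPM + 1) minus its own mean for SERPINF1 (thick red) and the 10 transcripts picked for their likeness, in each of the 9 libraries by stage. Dashed lines are lncRNAs. All of them average highest at ZT20, and SERPINF1 has a larger first step than the 6 mRNAs with a symbol.

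Over the 9 libraries the mRNA table summed to 839819 to 883100 TPM, and both tables to 972378 to 983179 TPM. Median ratio size factors were 1.12 to 1.21 in the ZT0 libraries, 0.835 to 0.961 in the ZT12 libraries and 0.944 to 1.01 in the ZT20 libraries, so the median mRNA was lower at ZT12 than at ZT0 and SERPINF1 moved against it. Of 16 granulosa markers 4 were paired, and their summed level was 87899 to 96009 TPM at ZT0, 96857 to 116825 TPM in ZT12 libraries and 97922 to 118688 TPM in ZT20 libraries. ZP3 held nearly all of that sum, and the other 3 summed to 1832 to 2822 TPM at ZT0, 1936 to 2213 TPM in ZT12 libraries and 10587 to 16539 TPM in ZT20 libraries. At ZT20 against ZT12 these 3 moved in opposite directions, with log2 differences of 3.13 for STAR, -2.06 for NR5A1 and -3.31 for NR5A2. Of 17 endothelium and mural cell markers 6 were paired, with summed levels of 58.1 to 124 TPM at ZT0, 37.6 to 44.1 TPM in ZT12 libraries and 22.2 to 25.2 TPM in ZT20 libraries, opposite in order to SERPINF1. Much of that fall was CLDN5, with means of 47.1, 16.0 and 4.78 TPM. At ZT20 against ZT12 all ZT20 libraries were below all ZT12 libraries for 3 of the 6 (CLDN5, S1PR1 and ADGRA2). They were above for 1, PALD1, with a mean of 14.6 TPM at ZT20 against 7.38 TPM at ZT12. Of all mRNAs, 34.6% were above in this way, and the share below is not given here. By limma 2 of the 6 were called lower and 0 higher at this step. The shares of all mRNAs were 11.7% called lower and 16.0% called higher. Of 18 theca and stroma markers 7 were paired, and without SPARC, which held nearly all of their level, the other 6 summed to 6.48 to 7.95 TPM at ZT0, 5.05 to 6.04 TPM in ZT12 libraries and 12 to 16.7 TPM in ZT20 libraries. With SPARC the sums were 3010 to 3958 TPM, 1756 to 2318 TPM and 1437 to 2082 TPM. For 5 of the 7 (COL6A3, FBN1, MXRA8, OLFML3 and MRC2) all ZT20 libraries were above all ZT12 libraries, and for 0 below. Over all mRNAs 34.6% were above in this way. The median difference of the 7 at this step was 0.65, against 0.08 for all mRNAs. Of 18 white blood cell markers 13 were paired, with sums of 287 to 323 TPM at ZT0, 244 to 385 TPM in ZT12 libraries and 173 to 227 TPM in ZT20 libraries, most of it FYB and CD74. The other 11 summed to 50.8 to 78.0 TPM at ZT0, 23.0 to 36.0 TPM in ZT12 libraries and 31.8 to 40.0 TPM in ZT20 libraries. At ZT20 against ZT12 all ZT20 libraries were above all ZT12 libraries for 5 of the 13 (PTPRC, DOCK2, KLHL6, RGS1 and CARD9). They were below for 3 (CD74, FYB and IKZF2). The 5 of 13 above is near the 34.6% of all mRNAs, and the share of all mRNAs below is not given here. By limma 2 of the 13 were called higher and 2 lower (30.8%), near the 27.8% of all mRNAs called. The median difference of the 13 was 0.28, against 0.08 for all mRNAs. RGS1 was listed at 0 in every ZT0 and ZT12 library and at 5.09 to 14.1 TPM at ZT20. Of 11 red blood cell markers 1 was paired, SLC25A37, with 12.4 to 19.2 TPM at ZT0, 7.78 to 14.4 TPM in ZT12 libraries and 3.87 to 5.59 TPM in ZT20 libraries. At the first step none of these sums outside the granulosa list had all ZT12 libraries above all ZT0 libraries. At the second step the sum of the 6 stroma markers, and that of the 3 granulosa markers without ZP3, did have all ZT20 libraries above all ZT12 libraries. With SPARC and with ZP3 included, those sums overlapped between ZT12 and ZT20. STAR held nearly all of the sum of the 3 granulosa markers at ZT20, with a mean of 13572 TPM. The part of other cell types in the SERPINF1 levels was not tested at either step.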

How the data were processed

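RNA of F1 granulosa cells from 9 hens was analysed. The authors aligned reads with STAR (2.6.0c in the submitters' processing notes), assembled lncRNAs with Cufflinks (2.2.1 in those notes, while the study's methods name another version) and used Kallisto for TPM. The deposited tables hold log2 values, read here as log2(TPM + 1) for mRNAs and, inferred from the values, as log2(TPM + 2) for lncRNAs. TPM keeps no depth, so the depth behind a value is unknown.

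A transcript entered the test if it exceeded 0.1 TPM in 1 or more libraries. The test was that of limma (version 3.58.1, R 4.3.3), run on log2(TPM + 1) with 3 stage means, a mean-variance trend and Benjamini-Hochberg adjustment. A log2 difference on this scale understates changes of low genes. The fit was tested on simulated data. DESeq2, the tool of the authors, was not run because counts are not used here.

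The gene and the lists were chosen with earlier results of these data known. Named were all paired serpins and PEDF partners, all annotated neighbours within 100 kb, at most 6 called members of each other list, and the transcripts of lowest RMS difference (6 mRNAs with a symbol, 2 of all mRNAs, 2 lncRNAs). HBEGF, CLIC4, EDN2, ENSGALG00000015708 and the cell type markers were named after their values were seen. Symbols and positions come from part of the study's annotation, in which 1824 mRNAs have a symbol. Alternatives were another pseudocount, filters, scalings, a covariate for the GC content of reads, a replicate block and each library left out.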

Additional observations from a re-analysis of the deposited data

How the results depend on the processing

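SERPINF1 kept its direction in every alternative run. It was chosen for rising at both steps, so this is a description and no test. Its stages did not overlap, so leaving out a library or adding a replicate block could not reverse the direction. Its log2 difference for ZT12 against ZT0 was 2.04 with median ratio scaling and 2.13 with quantile normalization, against 1.72, and leaving out each library gave 1.59 to 1.91. For ZT20 against ZT12 the range was 1.26 to 1.58, and for ZT20 against ZT0 it was 3.04 to 3.29. In the paper's summary of the reads, every ZT12 library had a higher GC content than every ZT0 library. Stage and GC content therefore cannot be fully told apart at ZT12 against ZT0. With GC content as a covariate, 4 mRNAs were called at this step, against 481 without it. The size of the SERPINF1 difference with that covariate is not given here.

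Of 45 paired pathway genes, limma called 3 at ZT12 against ZT0. It called 0 with GC content as a covariate (8 at an unadjusted p under 0.05), 1 in a fit of the compared stages alone and 9 with no fold change threshold. With GC content, 2157 of 12472 mRNAs were at an unadjusted p under 0.05, a share near that of the 8 of 45. At ZT20 against ZT12 limma called 19, and 29 both with a pseudocount of 0.1 and with no fold change threshold. With that pseudocount 4454 of all mRNAs were called there. At ZT20 against ZT0 limma called 17, and 31 with no fold change threshold. With each library left out, the counts were 1 to 4, 16 to 20 and 16 to 18. Of the 8 neighbours, limma called 1 at ZT12 against ZT0, and 0 with GC content (1 at an unadjusted p under 0.05). In a fit of the compared stages alone it called 0 as well (2 at an unadjusted p under 0.05). In that fit 4808 of 12472 mRNAs were at such a p. At ZT20 against ZT12 limma called 3 of the neighbours, and at ZT20 against ZT0 it called 2, and 5 each with no fold change threshold. With each library left out, the counts were 0 to 1, 3 to 3 and 2 to 3. The cause of these shifts was not tested.

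Over all mRNAs, 481 were called at ZT12 against ZT0 (67 higher and 414 lower). The counts were 785 with a pseudocount of 0.1, 203 with median ratio scaling (101 higher, 102 lower), 215 with quantile normalization (115 higher, 100 lower), 4 with GC content, and 196 to 699 with each library left out. A fit of the compared stages alone called 387. The median of all mRNAs moved to -0.02 with median ratio scaling. At ZT20 against ZT0, 1442 were higher and 2070 lower, against 1729 and 1564 with median ratio scaling and 1653 and 1656 with quantile normalization. With no fold change threshold the mRNAs called were 2089 at ZT12 against ZT0, 6638 at ZT20 against ZT12 (3465 with it) and 6676 at ZT20 against ZT0 (3512 with it).

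Replicate numbers are shared between stages as labels. Deviations of same-numbered libraries correlated at -0.19 to 0.08 over mRNAs, so the numbers were not taken as a pairing. Every stage holds each replicate number, so a replicate block leaves the differences unchanged by design and can alter only the calls. With the block the SERPINF1 differences were 1.72, 1.46 and 3.17, the pathway counts 3, 19 and 17, and the neighbour counts 1, 3 and 2, equal to those without it. Over all mRNAs the block did alter the calls, with 388 at ZT12 against ZT0 and 481 without it.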
